A study of Mus musculus with 4 samples.

Results

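Myeloid-derived suppressor cells (MDSCs) restrain T cells through a small set of effector genes, and 10 of them are described here: Arg1, Arg2, Nos2, Cd274, Il10, Tgfb1, Ptgs2, Ptges, Il4i1 and Ido1. They were chosen by symbol, for the known roles of their products and with earlier results of these data known. All 10 were found among the 32285 genes of the count tables. Live CD11b+ cells grown from mouse bone marrow for 4 days in 40 ng/mL each of GM-CSF and IL-6 were profiled by droplet single-cell RNA-seq in 4 libraries. The comparison made is between WT cells grown with isoproterenol (ISO, an agonist of β-adrenergic receptors, 10 µM) and WT cells grown with PBS, called WT+ISO and WT+PBS. The other 2 libraries of the series were clustered together with these and enter the values given per cluster, and are not compared. The groups follow the sample titles, although the treatment field names isoproterenol for all 4. The study used mice of 6 to 10 weeks on the C57BL/6 background. How many mice gave each culture is not given in the sources used here, and the suspensions were pooled before capture. Each group is 1 library. There is therefore no test of any difference between groups. Every 95% interval below covers counting error only, not the spread between cells, cultures or animals. The intervals of levels and ratios take each UMI as independent, so they are too narrow where few cells hold most UMIs.

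These genes act by separate routes. Arginases deplete the arginine that T cells need, and nitric oxide synthase turns the same amino acid into nitric oxide, which blocks T cell signaling. PD-L1, the product of Cd274, engages the PD-1 checkpoint receptor. IL-10 and TGF-β are suppressive cytokines, Ptgs2 (COX-2) and Ptges make prostaglandin E2, and Il4i1 and Ido1 degrade aromatic amino acids and so feed the aryl hydrocarbon receptor. ISO acts on β-adrenergic receptors to raise cyclic AMP, which is known to act on several of these genes in myeloid cells.

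The 4 libraries held 9303 cells after filtering, of 9525. WT+PBS gave 2210 cells with 24393687 unique molecular identifiers (UMIs) and a median of 8088.5 per cell, and WT+ISO 2264 cells with 29400468 UMIs and a median of 10252. No cell barcode was shared between libraries (0 in common). Levels are given as CPM, the UMIs of the gene per 1000000 UMIs of the library (or, within a cluster, of that cluster in the library).

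Clustering without the 10 genes and their pathway lists gave 7 clusters. Cluster 1 (996 cells, led by C1qb and Mrc1) was macrophage-like, cluster 3 (2701 cells, Retnlg and Ly6g) mature neutrophil-like, cluster 4 (1582 cells, with Nkg7, Mpo and Elane ahead) progenitor-like by its azurophil granule genes, and cluster 6 (102 cells, Ccl5, Ccr7 and Ccl22) migratory dendritic cell-like. Cluster 0 (1821 cells, Csta3 and Matn2), cluster 2 (1875 cells, Gpnmb and Atp6v0d2) and cluster 5 (226 cells, Stfa3) are called by their leading genes. Gpnmb-high cells were shallow, with a median of 3153 UMIs (0.38 of that of their libraries). At least 10% of them held a UMI of 5 of 6 mature neutrophil markers and of 1 of 6 macrophage markers. The same held for 4 of 4 markers of activated lipid and lysosome macrophages. The mature neutrophil markers summed to 37700 CPM in this cluster and 114000 in the mature neutrophil-like one. The lipid and lysosome macrophage markers summed to 1330 and 158 CPM in the same order. In the Csta3/Matn2-high cluster the neutrophil and the lipid and lysosome sums were 37500 and 1330 CPM. In the macrophage-like cluster they were 5520 and 3270 CPM. The label MDSC covers neutrophil and monocyte lineages, and neutrophil-lineage and macrophage-like cells were both present.

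The genes differed in the clusters that held them. Arg1 and Il4i1 were each held mostly by a single cluster, Arg2 and Cd274 by a few, and Tgfb1 by every cluster. Of the Arg1 UMIs of all 4 libraries, 72.4% lay in the macrophage-like cluster, which gave 13.4% of all UMIs. That cluster held 103 of the 178 Arg1 UMIs of WT+PBS and 50 of the 64 of WT+ISO. Of the Il4i1 UMIs of all 4 libraries, 75.6% lay in the 102 cells of the migratory dendritic cell-like cluster, which gave 1.36% of all UMIs. Il10 and Ido1 were near the limit of detection in both WT libraries.

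**Figure D1:**
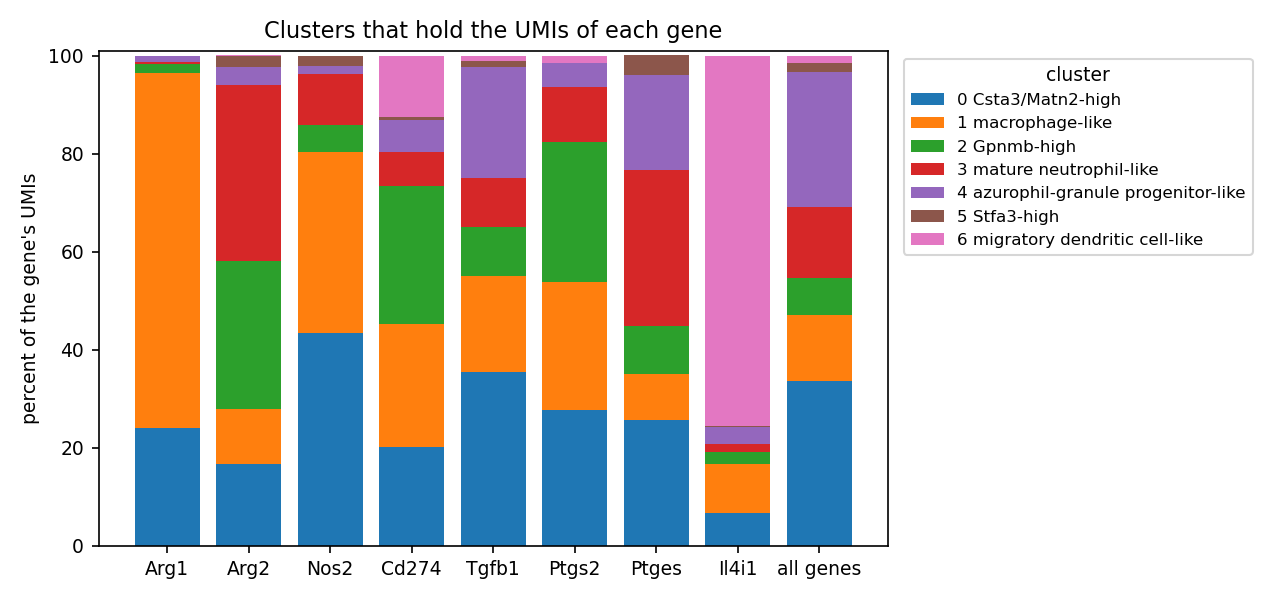
Percent of the UMIs of each gene (y axis, all 4 libraries together) that lay in each of the 7 clusters, beside the same share for all genes. Arg1 is mostly in cluster 1 (72.4%) and Il4i1 mostly in cluster 6 (75.6%), while Tgfb1 follows the shares of all genes more closely.

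A gene was called higher or lower when its CPM differed at least 1.5-fold and the pair of libraries held at least 50 UMIs of it, which 8 of the 10 genes did (Il10 and Ido1 did not). With ISO in WT, 0 of the 8 were called higher and 3 lower (Arg1, Ptgs2 and Il4i1), where 1.66% of all 11852 genes tested were called higher and 6.82% lower. The log2 ratio was below 0 in 8 of 8 genes, and the interval of counting error lay below 0 in 7. The share of all genes on that side of 0 was not counted. With clusters held at equal weights, meaning the same cluster weights in both libraries, Cd274 (0.22) and Il4i1 (0.64) were above 0. The others stayed below 0. The median log2 ratio of the 8 genes was -0.44, and that of all genes -0.02.

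**Figure D2:**
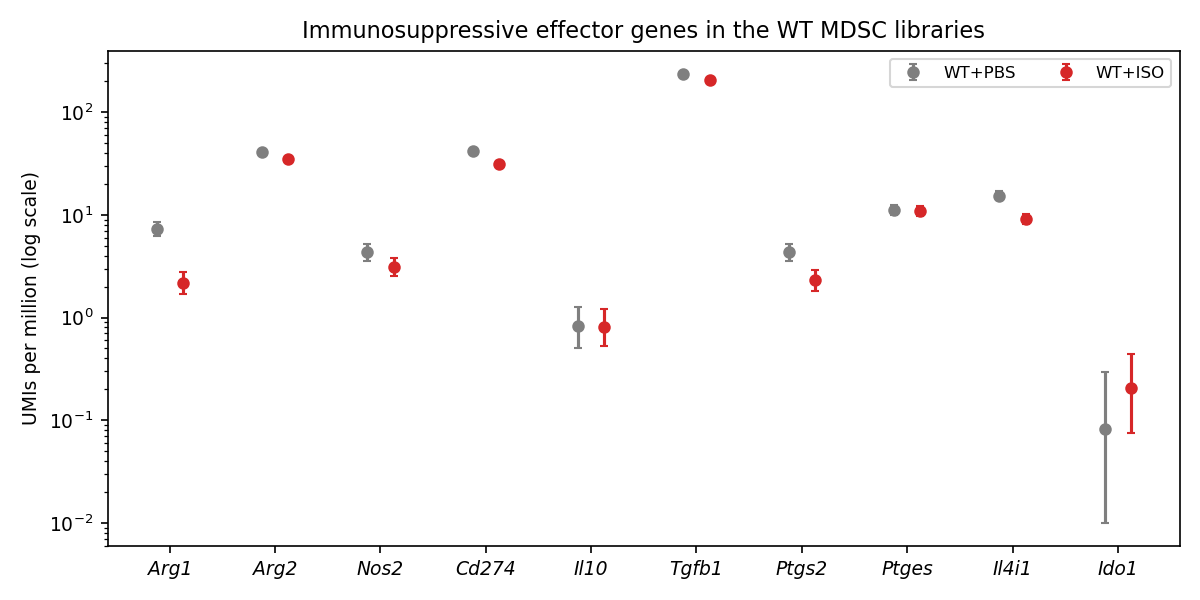
Level of each of the 10 genes in the WT+PBS and WT+ISO libraries (CPM, log scale), with exact Poisson 95% intervals of counting error. Arg1 is at 7.30 with PBS and 2.18 with ISO with intervals that do not overlap, and Il10 and Ido1 lie at or below 0.82.

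**Figure D3:**
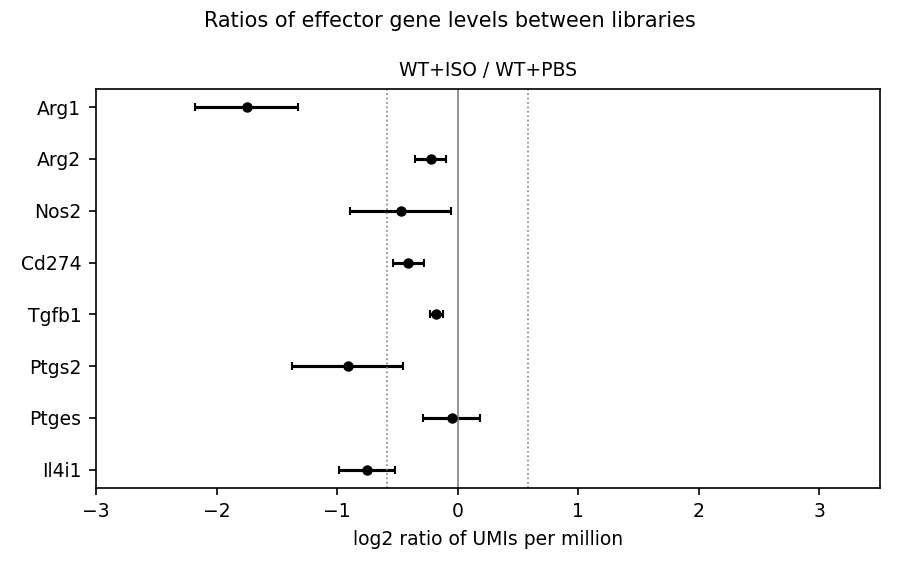
Log2 ratio of CPM in WT+ISO to that in WT+PBS for the 8 genes with enough UMIs, with exact 95% intervals of counting error. Dotted lines mark 1.5-fold, and Arg1, Ptgs2 and Il4i1 lie past it on the left.

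Arg1 (ENSMUSG00000019987, GRCm38 chr10:24915207-24927470) encodes cytosolic arginase 1, the classical effector of monocytic MDSCs and of alternatively activated macrophages. It stood at 7.30 CPM in WT+PBS (95% interval 6.26 to 8.45, 178 UMIs) and 2.18 in WT+ISO (1.68 to 2.78, 64 UMIs), intervals that do not overlap. The ISO library was 3.35-fold lower, a log2 ratio of -1.75 (-2.18 to -1.33). Few cells carried these UMIs, since the 10 cells with the most held 69.7% of them in WT+PBS and 78.1% in WT+ISO. In each library 7 of these 10 cells were macrophage-like and 3 lay in the Csta3/Matn2-high cluster. Without them the log2 ratio was -2.22.

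Within the macrophage-like cluster Arg1 stood at 35.3 CPM in WT+PBS and 29.0 in WT+ISO, a smaller ratio than over all cells (log2 -0.28, -0.80 to 0.22, on 103 UMIs with PBS and 50 with ISO). In the Csta3/Matn2-high cluster the ratio was -2.57 (-3.59 to -1.67), on 66 UMIs with PBS, 29 of them from a single cell, and 12 with ISO. The macrophage-like cluster took 8.78% of the cells of WT+PBS and 4.59% of WT+ISO, so its share was ordered as Arg1 was. The 6 macrophage markers, all detected in both libraries, summed to 143 and 61.1 CPM. With clusters held at equal weights the log2 ratio of Arg1 was -0.98. Without the macrophage-like cluster, a setting chosen after seeing the data, it was -2.79. The part of that cluster's share in the Arg1 difference was not tested further. In sums over a library, fewer cells of a type and less RNA per cell cannot be told apart.

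With every cell thinned to 2000 UMIs (8593 cells deep enough), 0.59% of cells held an Arg1 UMI in WT+PBS and 0.42% in WT+ISO. Of macrophage-like cells alone, 3.11% held one with PBS (1.15 to 6.64) and 6.73% with ISO (2.75 to 13.4), intervals that overlap. In mature neutrophil-like cells of all 4 libraries the share was 0.08% (0.01 to 0.28). Arg1 had 0 UMIs in the Stfa3-high cluster, which allows up to 1.49 CPM (taking 3 UMIs as the most that a count of 0 allows, here and below), and 0 in the migratory dendritic cell-like cluster, which allows up to 2.17 CPM. In all, 3 Arg1 UMIs lay in the 2701 mature neutrophil-like cells.

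Arg2 (ENSMUSG00000021125, chr12:79130788-79156301) encodes the mitochondrial arginase. Its level was 40.5 CPM in WT+PBS (988 UMIs) and 34.7 in WT+ISO (1020 UMIs), which was not called. By cluster, the median over the 4 libraries was 161 CPM in the Gpnmb-high cluster (135 to 189.6), 95.1 in the mature neutrophil-like cluster (89.0 to 110.4) and 46.8 in the Stfa3-high cluster (28.3 to 54.0), ranges that do not overlap. The macrophage-like cluster followed at 32.8, overlapping with the Stfa3-high one, and the progenitor-like cluster held 5.76. Thinned to equal depth, 26.3% of Gpnmb-high cells and 18.3% of mature neutrophil-like cells held an Arg2 UMI, against 1.08% of progenitor-like cells.

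The ISO to PBS ratio of Arg2 was -0.22 in log2 (-0.35 to -0.10). Within clusters it took both signs. It was 1.00 in macrophage-like cells (0.53 to 1.47) and 0.27 in Gpnmb-high cells (0.05 to 0.50), but -0.22 in mature neutrophil-like cells (-0.44 to -0.01), -0.49 in Csta3/Matn2-high cells (-0.83 to -0.14) and -0.87 in progenitor-like cells (-1.52 to -0.22). With clusters held at equal weights it was -0.02.

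Of 22 other genes that handle arginine, polyamines and nitric oxide, 19 had enough UMIs in the WT libraries. With ISO 0 were called higher and 2 lower (1.66% and 6.82% of all genes). Slc7a2, which encodes a cationic amino acid transporter, stood at 40.5 CPM with PBS and 14.6 with ISO. Ass1, which encodes argininosuccinate synthase, stood at 160.8 and 90.5. Slc7a1 and Asl of the same list had log2 ratios of -0.12 and -0.02. When clustered on 4000 variable genes, Slc7a2 was among the leading genes of a cluster led by Mrc1. That cluster took 17.4% of the cells of WT+PBS and 10.7% of WT+ISO, and its part in the Slc7a2 difference was not tested. The log2 ratio of Slc7a2 was -1.47 (-1.64 to -1.31) and that of Ass1 -0.83 (-0.90 to -0.76). The list's median log2 ratio was -0.01, close to that of all genes.

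Nos2 (ENSMUSG00000020826, chr11:78920787-78960226) encodes inducible nitric oxide synthase. It stood at 4.35 CPM in WT+PBS (3.56 to 5.26, 106 UMIs) and 3.13 in WT+ISO (2.52 to 3.84, 92 UMIs), intervals that overlap. The log2 ratio was -0.47 (-0.89 to -0.06), which was not called. Its UMIs were less concentrated than those of Arg1, with at most 7 in a cell and 39.6% and 48.9% of them in the 10 cells with the most.

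Most Nos2 UMIs of the 4 libraries together lay in the Csta3/Matn2-high cluster (43.4%) and the macrophage-like cluster (36.9%). These clusters gave 33.7% and 13.4% of all UMIs. In the same order they held 45 and 41 of the 106 Nos2 UMIs of WT+PBS, and 41 and 12 of the 92 of WT+ISO. Over the 4 libraries the median level was 17.3 CPM in the macrophage-like cluster (6.96 to 24.3) and 8.24 in the Csta3/Matn2-high cluster (4.44 to 14.6), ranges that overlap, and 0.28 in progenitor-like cells. Within each library the macrophage-like level was above the Csta3/Matn2-high one, at 14.05 and 5.26 CPM in WT+PBS and 6.96 and 4.44 in WT+ISO. In WT the ISO to PBS ratio was -1.01 in macrophage-like cells (-2.08 to -0.06, on 41 and 12 UMIs) and -0.25 in Csta3/Matn2-high cells (-0.89 to 0.40, on 45 and 41 UMIs). In mature neutrophil-like cells it was 0.73 (-0.49 to 2.11, on 8 and 22 UMIs).

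Over all 4 libraries, thinned to equal depth, 12% of macrophage-like cells with an Arg1 UMI also held Nos2 (11 of 92 cells, 6.12 to 20.4), against 2.88% of those without (1.89 to 4.20). Of these 92 cells 6 came from WT+PBS and 7 from WT+ISO, too few for shares of their own, and differences between libraries were not taken out of the pooled shares.

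**Figure D4:**
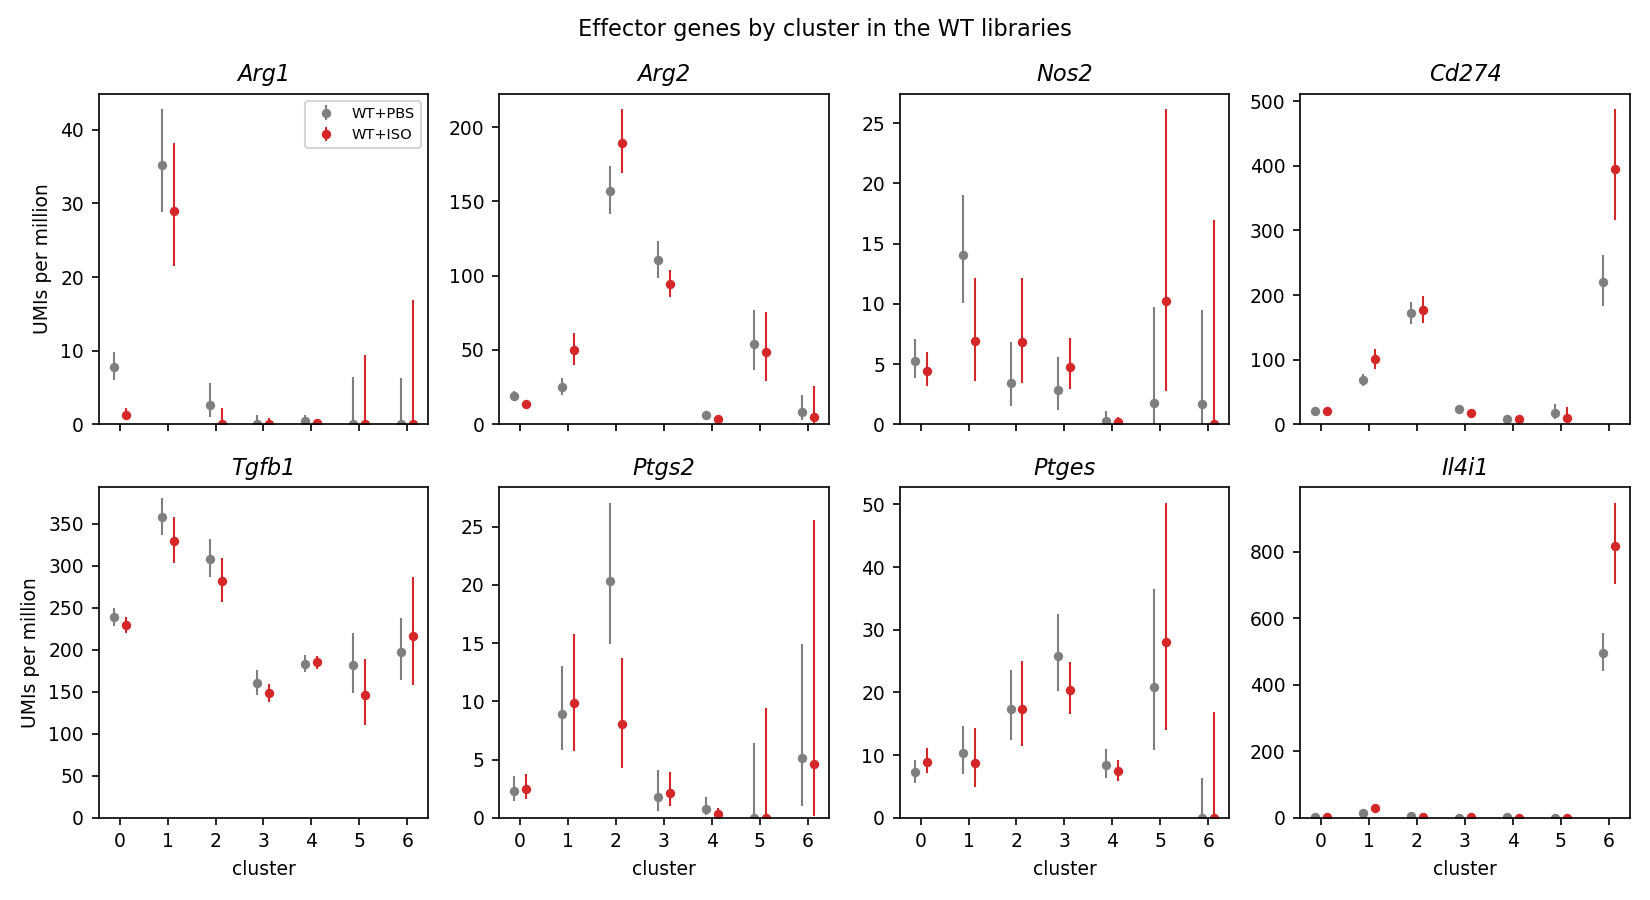
Level of 8 effector genes (CPM, y axis starting at 0, a scale per gene) in clusters 0 to 6 of the WT+PBS and WT+ISO libraries, with exact Poisson 95% intervals. Arg1 stands out in cluster 1, Arg2 in clusters 2 and 3, Cd274 and Il4i1 in cluster 6, and Tgfb1 is found throughout.

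Cd274 (ENSMUSG00000016496, chr19:29362107-29388095), which encodes PD-L1, stood at 41.9 CPM in WT+PBS (39.3 to 44.5, 1021 UMIs) and 31.5 in WT+ISO (29.5 to 33.6, 926 UMIs), intervals that do not overlap. The log2 ratio was -0.41 (-0.54 to -0.28), short of the 1.5-fold needed for a call. Over the 4 libraries the migratory dendritic cell-like cluster had the highest level, with a median of 380.5 CPM (220.1 to 577), followed by the Gpnmb-high cluster at 139.7 (91.2 to 177) and the macrophage-like cluster at 68.8 (59.0 to 100.3). The first of these ranges does not overlap with the others, whereas the Gpnmb-high and macrophage-like ranges overlap. These ranges set different libraries against each other. Within each library the Gpnmb-high level was above the macrophage-like one, at 172 and 67.8 CPM in WT+PBS and 177 and 100.3 in WT+ISO. At equal depth 26.9% of Gpnmb-high and 13.5% of macrophage-like cells of WT+PBS held a Cd274 UMI, and 32.8% and 16.35% of WT+ISO. Before thinning the order was the other way, 35.15% and 49.0% in WT+PBS and 46.1% and 67.3% in WT+ISO. The median depth of these clusters was 3153 and 13159 UMIs. Progenitor-like cells held 8.61 CPM. In the dendritic cell-like cluster WT+PBS held 220.1 CPM (129 UMIs in 37 cells) and WT+ISO 395 (86 UMIs in 15 cells).

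Within clusters the ISO to PBS ratio of Cd274 was above 0 in 4 of 5, but the interval lay above 0 in only 1. It was 0.56 in macrophage-like cells (0.26 to 0.87), 0.07 in Csta3/Matn2-high cells (-0.23 to 0.37) and 0.04 in Gpnmb-high cells (-0.18 to 0.26). In progenitor-like cells it was 0.23 (-0.27 to 0.75) and in mature neutrophil-like cells -0.43 (-0.92 to 0.07). At resolution 1.0 it was -0.73 in the cluster led by Retnlg (-1.25 to -0.21). There it was 0.66 in the cluster led by C1qb (0.32 to 0.99) and 0.41 in that led by Gstt1 (0.04 to 0.76). The other intervals at that resolution spanned 0. With clusters of resolution 0.4 held at equal weights the ratio was 0.22, the opposite sign of the ratio of all cells. The Gpnmb-high cluster took 26.5% of the cells of WT+PBS and 15.9% of WT+ISO. Within that cluster Cd274 stood at 172 CPM with PBS and 177 with ISO. The part of these shares in the Cd274 difference was not tested beyond the equal weights.

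At resolution 1.0 the highest Cd274 level was in another cluster, 153 Gpnmb-high cells with 1822 median UMIs, at 454 CPM (360.2 to 515), beside 381 in the dendritic cell-like one (222 to 577), ranges that overlap. Cd274 UMIs numbered 157 in the 153 Gpnmb-high cells and 461 in the 100 dendritic cell-like ones. The 153 Gpnmb-high cells also had the highest median level of Arg2, 288 CPM (92.2 to 487), in a range that overlapped with the next cluster. In the Gpnmb-high cluster as a whole, thinned to equal depth, 27.4% of WT+PBS cells with Arg2 held Cd274 (19.5 to 36.6) and 26.7% of the others (22.1 to 31.8). With ISO these shares were 39.5% (28.4 to 51.4) and 30.1% (23.5 to 37.3), and the intervals overlap in each library.

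Of 18 other checkpoint and co-stimulatory genes, not all of them ligands, 13 were tested with ISO in WT. Of these, 0 were called higher and 5 lower (1.66% and 6.82% of all genes), with a median log2 ratio of -0.56. Cd86, a ligand of CD28 and CTLA-4, stood at 88.9 CPM with PBS and 34.4 with ISO, a log2 ratio of -1.37 (-1.48 to -1.26). Tnfsf9 (4-1BB ligand) had 68 and 30 UMIs, a log2 ratio of -1.45 (-2.12 to -0.81). Havcr2, which encodes the receptor TIM-3, and Cd276 (B7-H3), both under 4 CPM, had ratios of -0.89 and -0.98. Pdcd1lg2, which encodes PD-L2, the other ligand of PD-1, was the fifth gene called, at 30.5 and 19.3 CPM, and is named after its values were seen. The 5 dendritic cell markers, all detected in both libraries, summed to 926 CPM with PBS and 308 with ISO, and their part in these differences was not tested.

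Tgfb1 (ENSMUSG00000002603, chr7:25687002-25705077), which encodes latent TGF-β1, was measured most deeply, with 5692 UMIs from WT+PBS and 6070 from WT+ISO. Its levels were 233 CPM in WT+PBS (227 to 239.5) and 206.5 in WT+ISO (201 to 212). The ISO to PBS ratio was -0.18 in log2 (-0.23 to -0.12), an interval that excludes a 1.5-fold difference by counting error. Over the 4 libraries the macrophage-like cluster had the highest median, 319 CPM (303 to 358), then the Gpnmb-high cluster at 296 (282 to 309), overlapping with it, and the Stfa3-high cluster the lowest at 129. The macrophage-like and Gpnmb-high levels were 358 and 309 CPM in WT+PBS, and 329 and 282 in WT+ISO. Within clusters the ISO to PBS ratio lay between -0.32 and 0.01, with 0 of 6 intervals apart from 0.

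Il10 (ENSMUSG00000016529, chr1:131019845-131024970) had 20 UMIs with PBS and 24 with ISO in the WT libraries, 0.82 CPM in each. At equal depth no cluster had more than 0.44% of cells with an Il10 UMI. A difference was not detectable at this depth (log2 ratio -0.01, -0.92 to 0.93).

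Among 21 other genes that produce or sense IL-10 and TGF-β, 15 were tested with ISO in WT. Of these, 0 were called higher and 4 lower (1.66% and 6.82% of all genes). Tgfbi, a secreted TGF-β target, stood at 165 and 104 CPM, Furin, a protease that cleaves pro-TGF-β, at 68.0 and 43.5, the receptor gene Tgfbr1 at 37.5 and 24.3, and Socs3, induced by STAT3 signaling, at 48.7 and 32.1. The log2 ratios were -0.67, -0.64, -0.63 and -0.60 in this order, and the list's median was -0.42.

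Ptgs2 (ENSMUSG00000032487, chr1:150100031-150108234) encodes inducible cyclooxygenase 2. WT+PBS held 106 UMIs of it and WT+ISO 68, or 4.35 (3.56 to 5.26) and 2.31 CPM (1.80 to 2.93), intervals that do not overlap. The ISO library was 1.88-fold lower, a log2 ratio of -0.91 (-1.37 to -0.46). A single WT+PBS cell held 11 of the UMIs, and 5 of the 10 WT+PBS cells with the most were Gpnmb-high. Without the 10 cells with the most in each library the log2 ratio was -0.92. With clusters held at equal weights it was -0.40, short of the 1.5-fold needed for a call.

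The highest median level of Ptgs2 over the 4 libraries was in the Gpnmb-high cluster (10.5 CPM, 6.74 to 20.3), overlapping with the macrophage-like cluster (7.46, 4.07 to 9.85). In WT the Gpnmb-high cells held 20.3 CPM with PBS (47 UMIs) and 8.03 with ISO (13 UMIs). There the ratio was -1.34 (-2.35 to -0.43), while it was 0.09 in Csta3/Matn2-high and 0.15 in macrophage-like cells, with wide intervals on both sides of 0. Ptgs2 had 0 UMIs in the Stfa3-high cluster, which allows up to 1.49 CPM.

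Over the 22 units of cluster and library with at least 50 cells, the level of Ptgs2 followed that of Cd274 (Pearson r 0.916, log2 of CPM plus 10), the closest pair among the 8 genes. The migratory dendritic cell-like cluster, with under 50 cells in each library, is not among the units, and there the median of Cd274 was 380.5 CPM and that of Ptgs2 3.53. The units share libraries and clusters, and Ptgs2 counts per unit are few, so r is a description. The promoters of this pair, and of Il4i1 for its level in so few cells, are shown as the 250 bases before the RefSeq start (GRCm38.p6, plus strand), at chr1:150099781-150100030, chr19:29367188-29367437 and chr7:44836038-44836287 in the order printed (the Cd274 window starts from a transcript that begins inside the gene interval given above). Capitals mark matches, on either strand, to C/EBP (TTGCNNAA) or to the NF-kB motif.
Ptgs2: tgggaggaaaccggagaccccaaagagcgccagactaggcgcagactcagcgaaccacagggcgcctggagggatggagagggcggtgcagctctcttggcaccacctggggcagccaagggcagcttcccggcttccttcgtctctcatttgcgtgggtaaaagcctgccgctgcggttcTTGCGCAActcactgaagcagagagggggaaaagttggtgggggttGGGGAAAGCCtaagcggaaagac
Cd274: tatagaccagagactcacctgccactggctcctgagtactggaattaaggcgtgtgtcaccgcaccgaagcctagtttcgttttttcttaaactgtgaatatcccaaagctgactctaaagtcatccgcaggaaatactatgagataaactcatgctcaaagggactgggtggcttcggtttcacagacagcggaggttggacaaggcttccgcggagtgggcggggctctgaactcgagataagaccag
Il4i1: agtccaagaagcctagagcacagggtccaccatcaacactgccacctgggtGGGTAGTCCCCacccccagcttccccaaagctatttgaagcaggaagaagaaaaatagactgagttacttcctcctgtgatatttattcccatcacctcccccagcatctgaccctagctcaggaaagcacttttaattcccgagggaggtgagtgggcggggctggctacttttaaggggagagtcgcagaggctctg

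The Ptgs2 promoter held a C/EBP match 69 to 62 bases before the start and an NF-kB match 23 to 14 bases before it, and the TGACG core of the cyclic AMP response element (CRE) lay 14 to 18 bases after the start, on the minus strand. The Il4i1 promoter held a pair of overlapping NF-kB matches from 199 to 189 bases before the start. The Cd274 window held no match to any of the 5 motifs. Of 32851 promoter windows of 300 bases, 10.8% held the C/EBP motif, 50.8% the NF-kB motif, 20.8% the TGACG core, 1.79% the full CRE TGACGTCA and 8.3% the STAT motif TTCNNNGAA. No full CRE or STAT match was found in the windows of Ptgs2, Cd274, Il4i1, Tgfb1 or Ptges. Windows of Tgfb1 and Ptges held only NF-kB matches. The other 5 genes, Arg1, Arg2, Nos2, Il10 and Ido1, were not searched. These matches are letters in a window and not binding sites.

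Ptges (ENSMUSG00000050737, chr2:30889471-30931020), the microsomal synthase downstream of COX-2, was even across both libraries, at 11.2 CPM in WT+PBS (273 UMIs) and 10.8 in WT+ISO (318 UMIs). Its log2 ratio was -0.05 (-0.29 to 0.19), an interval that excludes a 1.5-fold difference by counting error. The mature neutrophil-like cluster had the highest median, 23.8 CPM (20.4 to 33.1), overlapping with the Stfa3-high cluster at 23.5, and the Gpnmb-high cluster followed at 16.5. At resolution 1.0 the highest median, 28.4 CPM, was in a cluster led by Ltf (23.1 to 36.0), and the cluster led by Retnlg held 18.1 (14.4 to 34.2), ranges that overlap. Ptges had 0 UMIs in the migratory dendritic cell-like cluster, which allows up to 2.17 CPM.

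Among 20 other genes of the prostaglandin and leukotriene pathway, 15 were tested with ISO in WT. Of these, 2 were called higher and 1 lower (1.66% and 6.82% of all genes). Ptgs1, the constitutive cyclooxygenase, stood at 43.9 CPM in WT+PBS and 78.3 in WT+ISO (log2 0.84, 0.73 to 0.94), the opposite direction to Ptgs2. Of the prostaglandin E2 receptors, Ptger3 stood at 3.69 and 6.43 CPM with PBS and with ISO (log2 0.80, 0.43 to 1.18), and Ptger4 at 10.3 and 6.39 (-0.69, -0.97 to -0.41).

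Il4i1 (ENSMUSG00000074141, chr7:44836288-44840809) encodes an L-amino acid oxidase secreted by antigen-presenting cells. It stood at 15.4 CPM in WT+PBS (13.9 to 17.0, 375 UMIs) and 9.12 in WT+ISO (8.06 to 10.3, 268 UMIs), intervals that do not overlap. The ISO library was 1.69-fold lower, a log2 ratio of -0.75 (-0.99 to -0.52).

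These values come from few cells. The 10 cells with the most held 65.9% of the Il4i1 UMIs of WT+PBS and 78.0% of those of WT+ISO. The migratory dendritic cell-like cluster counted 37 WT cells with PBS and 15 with ISO, and its Il4i1 level was 497 CPM with PBS (441 to 557) and 818 with ISO (702 to 947). With fewer than 20 cells in WT+ISO no ratio within the cluster was taken. The cluster was 1.67% of the cells of WT+PBS (1.18 to 2.30) and 0.66% of WT+ISO (0.37 to 1.09). The 4 markers of these cells, all detected in both libraries, summed to 46.7 and 21.7 CPM. With clusters held at equal weights the ratio was 0.64, the opposite sign of that over all cells. In the macrophage-like cluster WT+ISO had 51 Il4i1 UMIs, 44 of them in a single cell. Over the 4 libraries at equal depth, 56.0% of dendritic cell-like cells held an Il4i1 UMI (45.7 to 65.9), against 0.27% of mature neutrophil-like cells (0.11 to 0.57), and 61.7% of those with Cd274 held Il4i1 (46.4 to 75.5) against 50.9% of those without (36.8 to 64.9).

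Ido1 (ENSMUSG00000031551, chr8:24584133-24596952) encodes indoleamine dioxygenase, the other amino acid-degrading enzyme of the set. WT+PBS held 2 UMIs of it and WT+ISO 6, at most 0.20 CPM, and 0 UMIs in the 996 macrophage-like cells of the 4 libraries, which allows up to 0.22 CPM. No comparison could be made.

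Of 17 other genes of tryptophan and aromatic amino acid catabolism and its receptor, 12 were tested with ISO in WT. Of these, 1 was called higher and 3 lower (1.66% and 6.82% of all genes). Kmo and Kynu, enzymes of the kynurenine branch, stood at 6.52 and 13.8 CPM with PBS and at 2.55 and 6.26 with ISO, log2 ratios of -1.35 and -1.14. Ahr, the aryl hydrocarbon receptor, stood at 53.8 CPM with PBS and 28.7 with ISO (-0.91, -1.03 to -0.78). Ahrr, its repressor, was the gene called higher, at 5.58 and 8.67 CPM (0.64, 0.33 to 0.95).

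**Figure D5:**
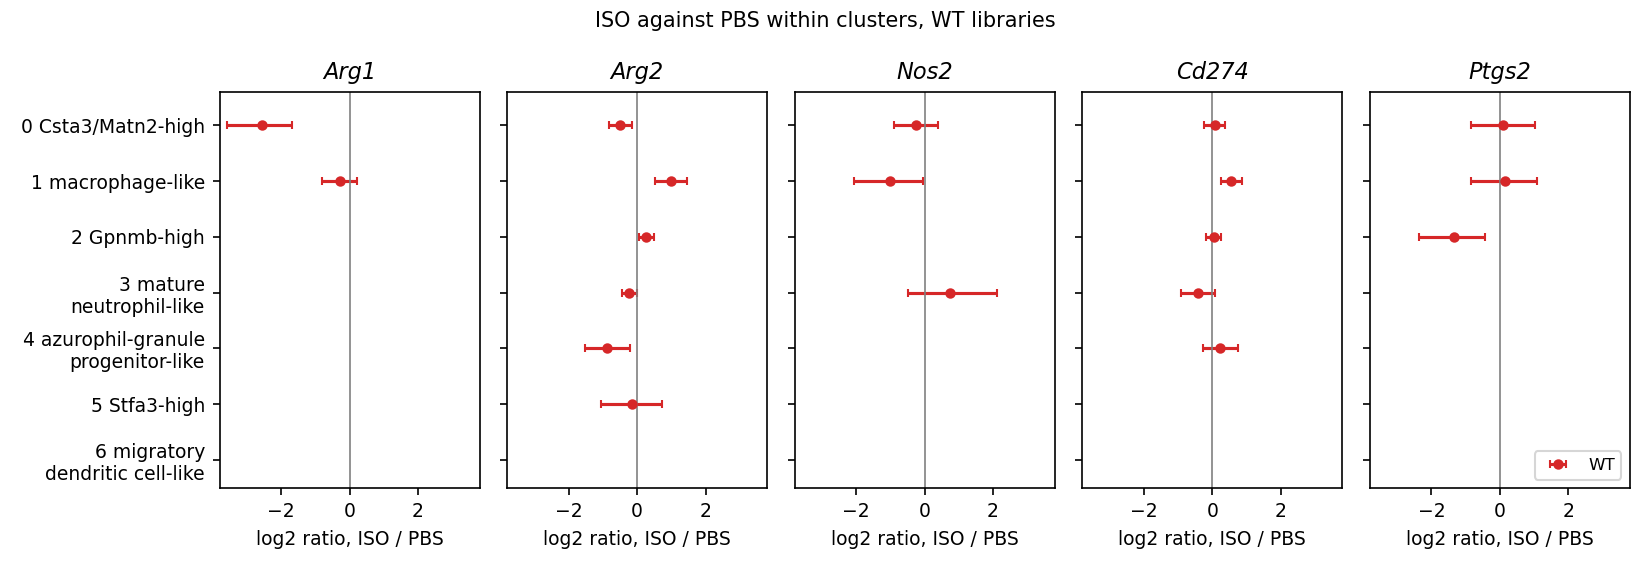
Log2 ratio of WT+ISO to WT+PBS within each cluster for 5 genes, with exact 95% intervals of counting error. Ratios are shown where each library had at least 20 cells of the cluster and the pair at least 20 UMIs. Cd274 lies above 0 in 4 of 5 clusters, with the interval above 0 in 1, and the Ptgs2 interval lies below 0 in the Gpnmb-high cluster.

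Among 16 regulators known to act on these genes, 0 were called higher with ISO in WT and 2 lower (1.66% and 6.82% of all genes). These were Atf3, a cyclic AMP- and stress-induced repressor (33.1 and 20.7 CPM), and Irf8, a factor of monocyte and dendritic cell fate (26.5 and 16.7). Their log2 ratios were -0.68 and -0.67. Among 18 other MDSC effectors, 17 were tested, with 1 higher and 2 lower (1.66% and 6.82% of all genes). Hmox1 (heme oxygenase 1) stood at 69.6 CPM with PBS and 134 with ISO (log2 0.94, 0.86 to 1.02). Il1b, the inflammatory cytokine IL-1β, stood at 137 and 47.1 (-1.54, -1.64 to -1.45). At resolution 1.0 Il1b was among the leading genes of the cluster led by Gstt1. That cluster took 12.9% of the cells of WT+PBS and 5.43% of WT+ISO, and its part in the Il1b difference was not tested. Adora2a, an adenosine receptor under 2 CPM in both libraries, was the other gene called lower (43 UMIs with PBS and 26 with ISO).

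Cells deep enough were thinned to 2000 UMIs, a depth that itself limits how many genes are seen together. Of these thinned cells, 33.0% of the dendritic cell-like and 26.3% of the Gpnmb-high ones held a UMI of at least 2 of the 10 genes. Only 1361 of the 1875 Gpnmb-high cells were deep enough. The share was 15.6% of macrophage-like, 8.71% of mature neutrophil-like and 1.97% of progenitor-like cells, and no cell held more than 4. The genes most alike each member over the 22 units, among 10753 searched, also differed. For Arg1 they were Rasa4, Sdc3 and Mfhas1 (r 0.980 to 0.986), for Arg2 Fpr1, Slfn1 and Upp1 (0.975 to 0.984), and for Cd274 Ano6, Ccl2 and Npc1 (0.960 to 0.964). For Nos2 they were Gm44751, Esr1 and Ell2 (0.879 to 0.890), for Tgfb1 Snx8, Snx3 and Pisd (0.965 to 0.967), and for Ptgs2 Grb2, Tgif1 and Gm37800 (0.922 to 0.928). For Ptges they were Dennd3, Cd33 and 6430548M08Rik (up to 0.938), and for Il4i1 Mir155hg, Ccl22 and Nr4a3 (0.889 to 0.897). The dendritic cell-like cluster is missing from all of these. Arg1 and Arg2 had r of -0.131, and Arg1 and Nos2 0.774.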

How the data were processed

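Single-cell RNA-seq libraries were made with a droplet kit from 4 cultures. The authors deposited whole-number counts of UMIs per gene and cell for each library (mm10). The submitters' processing notes name Cell Ranger 6.0.0 and Seurat, while the matrix header names Cell Ranger 7.0.0. Cells with under 200 genes or over 10% mitochondrial UMIs were left out. Scanpy 1.11.5 (Python 3.11.15) was used for clustering: 10000 counts per cell, 2000 variable genes without the 10 genes and their lists, 30 components, 15 neighbours, Leiden resolution 0.4 (finer 1.0), seed 0. The doublet caller marked 0.183% of cells, so it was taken not to have worked, and doublets were kept.

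Counts were summed per library or per cluster and library. At equal weights, a cluster had the same weight in both libraries, the mean of its shares of their UMIs, and clusters differed in weight. Intervals are exact Poisson (CPM), Clopper-Pearson (shares) or conditional binomial (ratios), at 95%, with scipy 1.17.1. The intervals cover counting error only. Shares of cells with a UMI were taken after thinning each cell to 2000 UMIs, except where stated. Shallower cells were left out of these shares. Ratios within a cluster needed 20 cells in each library. The ratio step was tested on simulated Poisson sums per library, which hold no spread between cells. With 1 library per group no test across genes was run. Besides the 10 genes, the text names up to 4 genes of each list that were past 1.5-fold with ISO in WT, and the 3 genes most alike each member. Promoters came from RefSeq, with a window for 5 of the 10 genes. Comparisons with the other 2 libraries are not reported here. The members and lists were chosen with earlier results of these data known.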

Additional observations from a re-analysis of the deposited data

How the results depend on the processing

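No paired analysis was possible because the groups hold 1 library apiece. Leaving out a library was not possible for the same reason, and nothing here measures the spread between cultures. Of 96 log2 ratios under the alternatives, 72 stayed within the counting interval of the value reported, 22 moved outside it, and 2, of a gene called lower, turned. That gene was Il4i1, at 0.64 with clusters of resolution 0.4 at equal weights and 0.65 at resolution 1.0. Arg1 stayed lower and past 1.5-fold under all 12 alternatives (-2.79 to -0.74), and Ptgs2 stayed lower under all 12 and past 1.5-fold under 10 (-1.02 to -0.32). Of the genes not called, Cd274 turned under the same 2 (0.22 and 0.28) and Arg2 under the second (0.05). The alternatives without the migratory dendritic cell-like cluster and without the macrophage-like cluster were chosen after seeing the data. Of the others, leaving out called doublets removed 4 cells from each WT library. Using no cell filter kept 2232 cells of WT+PBS and 2300 of WT+ISO, against 2210 and 2264. These settings could hardly move a ratio, so their values staying the same is no support.

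Of the 3 genes called lower, 1 was left with clusters at equal weights at either resolution and 1 at a fold of 2. Of all 11851 genes with UMIs in both libraries, 807 were lower and 197 higher at the main setting. With clusters at equal weights 353 were lower and 247 higher at resolution 0.4, and 334 and 246 at resolution 1.0. For a fold of 2 all genes were not counted. With cells thinned to 2000 UMIs 0 of the 3 genes were left, and of all genes 590 were lower and 209 higher. The minimum of 50 UMIs was applied to the thinned sums, and 8686 genes still reached it. Arg1 and Ptgs2 did not, although their thinned log2 ratios, -0.74 and -0.97, were past 1.5-fold. That of Il4i1, -0.55, fell short of 1.5-fold. The count called higher, 0, was 1 with clusters at equal weights at either resolution. For the equal weights the cause was not tested.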

Other observations

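The 5 eosinophil markers summed to 60.6 CPM with PBS and 5.51 with ISO in the WT libraries, with 1 of the markers at 0 in WT+ISO. At resolution 1.0, over the 4 libraries, Nos2 stood at a median of 17.3 CPM (13.1 to 28.7) in a cluster of 857 cells led by Csta3. That cluster held 36.7% of the Nos2 UMIs and 12.4% of all UMIs. At the same resolution the cluster of 936 cells led by Gstt1 held Ptgs2 at 19.3 CPM (15.3 to 26.7).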
